A study of Mus musculus with 16 samples.

Results

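The numbered zinc finger protein mRNAs are the mouse transcripts whose gene symbol is Zfp followed by a number. They were chosen by name and by level: 248 of the 13015 genes listed carried such a symbol, Zfp36 left aside, and the 165 with a mean of at least 1 on the log2 scale over all 16 libraries were kept. The mean level was thus the measured value used in the rule, and neither the fraction nor the siRNA entered the rule. The members were, however, chosen with earlier results of these data known, so the choice is not independent of the comparisons below. Just inside the threshold lay Zfp235 with a mean log2 value of 1.06, Zfp697 with 1.14 and Zfp952 with 1.14, and just outside lay Zfp770 with 0.95, Zfp174 with 0.95 and Zfp317 with 0.92. Zfp36 encodes a protein with CCCH fingers that binds AU-rich mRNA and was left out by name.

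RNA-Seq was done on NIH/3T3 cells, an immortalized line of mouse embryonic fibroblasts grown in calf serum. After serum starvation they were given 2 h to settle on filters whose pores measured 3 μm, and lysophosphatidic acid (LPA) in the lower chamber drew protrusions through the pores for 1 h. After brief fixation in 0.3% paraformaldehyde for 10 min, protrusions (Ps) were scraped from the underside of the filter, and cell bodies (CB), which hold the nuclei, from its top. Cells had received a control siRNA (siControl) or an siRNA against the transcript of Apc, the adenomatous polyposis coli protein (siAPC). Each siRNA gave 4 CB and 4 Ps libraries, 4 groups in all. Both siRNA groups were transfected populations of the same line, starved and stimulated alike, so neither group describes unstimulated cells. The libraries of a group are described in the study as independent replicates, while the labels name no separate cultures, and p-values measure the spread between these libraries.

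Most Zfp proteins carry tandem C2H2 zinc fingers, small folds in which a pair of cysteines and a pair of histidines hold a zinc ion and the exposed helix reads DNA. Many also carry an N-terminal KRAB box, which recruits Trim28 and, through it, the methyltransferase Setdb1 and heterochromatin proteins, to silence retroelements and imprinted loci. A minority of the numbered proteins act elsewhere, for example on ribosomes, RNA or the mitotic spindle.

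Most members share a sequence feature, the finger itself. The rule did not read sequences, but the name Zfp stands for zinc finger protein, so fingers follow from the choice by name. All 165 members were matched to the GENCODE M21 annotation (GRCm38), and translation of their coding sequences gave 1545 C2H2 matches, with a median of 9 per member and 36 in Zfp142, the highest count. No match was found in 4 members, Zfp703, Zfp330, Zfp365 and Zfp839. The stretches below are shown because the composition of the coding sequence ran with the distribution between Ps and CB described further on. Each encodes a single finger of 63 bases, read from the GENCODE M21 transcript 5′ to 3′, with the codons of the 2 cysteines and 2 histidines in capitals. From each member the finger whose GC content was nearest the median of its own fingers was taken. For the members with the lowest ratio of Ps to CB that have at least 5 fingers, the stretch lies at chr2:170119716-170119778 on the minus strand for Zfp217, at chr8:123267617-123267679 on the plus strand for Zfp276 and at chr7:24141094-24141156 on the plus strand for Zfp235.
Zfp217: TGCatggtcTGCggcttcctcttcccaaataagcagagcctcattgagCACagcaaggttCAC
Zfp276: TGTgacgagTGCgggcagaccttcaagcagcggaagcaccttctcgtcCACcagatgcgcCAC
Zfp235: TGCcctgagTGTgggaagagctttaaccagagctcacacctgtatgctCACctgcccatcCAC

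By the same rule, but passing over Zfp931 because it shares much of its sequence with other transcripts, the stretch of members with a high ratio lies, always on the minus strand, at chr10:82225750-82225812 for Zfp938, at chr5:138607043-138607105 for Zfp68 and at chr9:20348242-20348304 for Zfp560.
Zfp938: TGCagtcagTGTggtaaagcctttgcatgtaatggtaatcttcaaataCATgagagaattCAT
Zfp68: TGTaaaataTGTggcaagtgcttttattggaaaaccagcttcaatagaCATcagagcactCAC
Zfp560: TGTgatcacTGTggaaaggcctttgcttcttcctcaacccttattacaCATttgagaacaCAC

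GC content was 52.4%, 61.9% and 55.6% in the stretches of Zfp217, Zfp276 and Zfp235, and 36.5%, 38.1% and 42.9% in those of Zfp938, Zfp68 and Zfp560.

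Reads in listed genes ranged from 13466225 to 20296087 per library, and a member had between 12 and 9388 reads in a library. The label check held: Apc fell with siAPC by 1.67 in CB (adjusted p = 0.000142) and by 1.84 in Ps (adjusted p = 3.1e-05) on the log2 scale. Of the fibroblast markers, Col1a1, Col1a2, Vim, Fn1, S100a4 and Pdgfrb lay between 6.80 and 14.0, whereas Thy1 lay between -3.49 and -0.22, near the value of 3 reads. Of the markers of other cells, Cd68 reached 2.68, Krt8 3.08, Cdh1 1.57 and Pecam1 -0.43. Malat1 and Neat1, long RNAs retained in the nucleus, were lower in Ps than in CB by 2.77 and 1.76 in siControl and by 2.49 and 1.49 in siAPC on the log2 scale. The deviations of libraries within their group ran with transcript GC content in both directions, by Spearman coefficients across 10238 genes. The lowest coefficients were -0.53 for siControl CB replicate 3 and -0.61 for siControl Ps replicate 2. For siAPC CB replicate 2 and siAPC Ps replicate 2 they were -0.59 and -0.66. The highest were 0.45 for siControl CB replicate 1 and 0.43 for siControl Ps replicate 3. For siAPC CB replicate 3 and siAPC Ps replicate 4 they were 0.54 and 0.51. Only the 4 libraries with the lowest coefficient of their group are called GC-trend libraries below. Counts of members called are also given without these 4, and whether a GC trend remains among the other libraries was not tested.

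As a group, the members made up a small part of each library and a smaller part of Ps than of CB. Their summed level was 4085 ± 106 CPM in siControl CB and 3417 ± 86.6 CPM in siControl Ps, and 4027 ± 67.5 CPM in siAPC CB and 3373 ± 42.3 CPM in siAPC Ps (SD, n = 4 each). The lowest CB library, at 3941 CPM, lay above the highest Ps library, at 3494 CPM. In bulk fractions such as these, less RNA per cell and fewer cells contributing a fraction cannot be told apart, and every value below is relative to the scaled size of its own library. As a share of listed reads the members made up 0.429% to 0.455% in siControl CB and 0.268% to 0.316% in siControl Ps, a wider gap than in the scaled values.

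The level of single members spanned a wide range, and none of the 3 highest per length had a KRAB match. Per kilobase of transcript, Zfp703 had a mean log2 level of 6.85, Zfp740 of 6.71 and Zfp207 of 6.30, against -1.48 for Zfp292, the lowest. Zfp703 encodes a transcriptional repressor of the NET family, and Zfp207, also known as BuGZ, binds microtubules and the spindle checkpoint protein Bub3. The median of the members' mean log2 levels, per gene and not per length, was 3.36.

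Setting Ps against CB in siControl asks in which fraction each zinc finger mRNA was the more abundant. In siControl, 81 of the 165 members were higher in CB and 23 higher in Ps at an adjusted p under 0.05 (limma, adjusted over all genes), whereas over all genes 31.2% were called higher in CB and 29.1% higher in Ps. The members' median log2 ratio of Ps to CB was -0.32, with quartiles of -0.63 and 0.12, beside a median of -0.00091 over all genes and of -0.03 over the 10292 genes that passed the same minimum mean. In 75 members all 4 CB libraries lay above all 4 Ps libraries, and in 15 all 4 lay below, against 26.5% and 24% of all genes. By the rule of a fold over 2 at an unadjusted p under 0.05, 9 members were CB-enriched and 4 Ps-enriched, where 6.82% and 7.19% of all genes were. Most members called thus had a ratio of less than 2-fold. The nuclear RNAs Malat1 and Neat1 moved in the same direction as the members higher in CB, and their part in this result was not tested.

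The split between CB and Ps depends on how libraries are scaled to each other. The deposited values carry a scaling factor that leaves the median of all genes near 0, and rescaling to the total of listed reads moved that median by -0.30 and gave 106 members higher in CB and 7 higher in Ps, where 47.6% and 15.4% of all genes were. Without the 4 GC-trend libraries, 83 members were higher in CB and 28 higher in Ps in siControl, where 31.6% and 30.7% of all genes were. In siAPC 80 and 36 were, beside 30.9% and 30.1% of all genes.

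**Figure D1:**
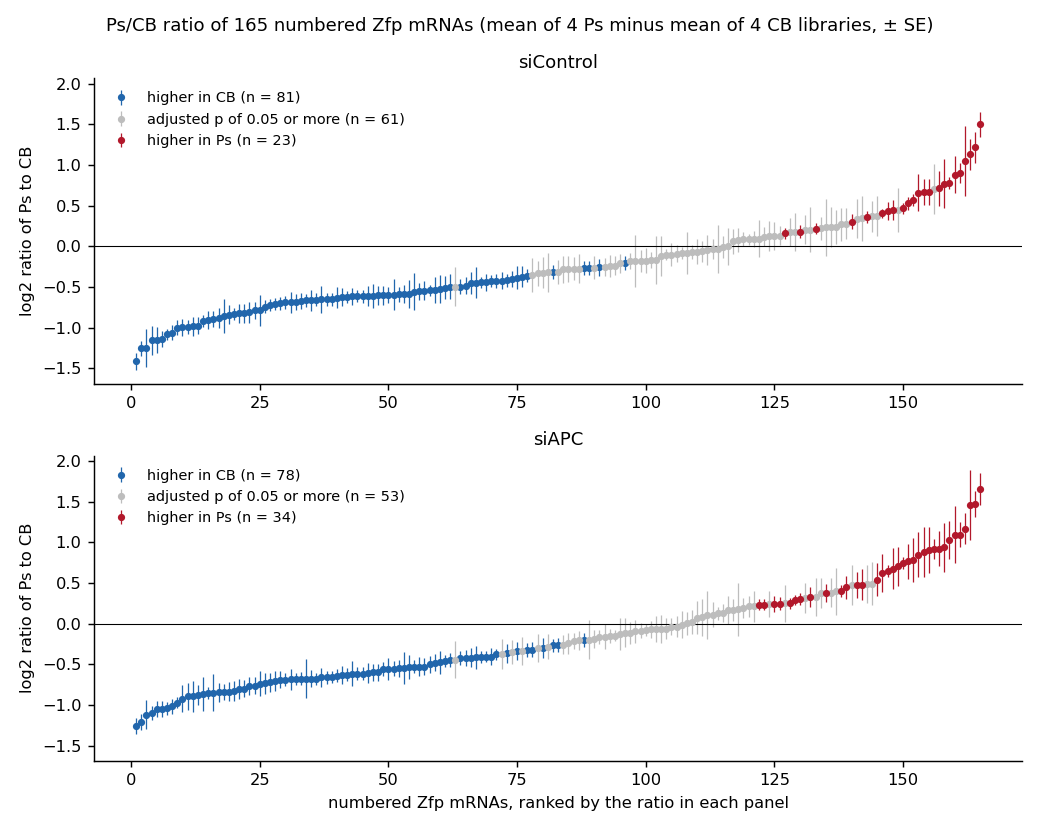
Log2 ratio of Ps to CB (y axis, mean of 4 Ps minus mean of 4 CB libraries, ± SE) of the 165 members ranked by ratio (x axis), in siControl (top) and siAPC (bottom), coloured by the limma call at an adjusted p under 0.05. The left and middle of both rankings lie below 0, with 81 members higher in CB in siControl and 78 in siAPC, and the right ends hold the 23 and 34 members higher in Ps.

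**Figure D2:**
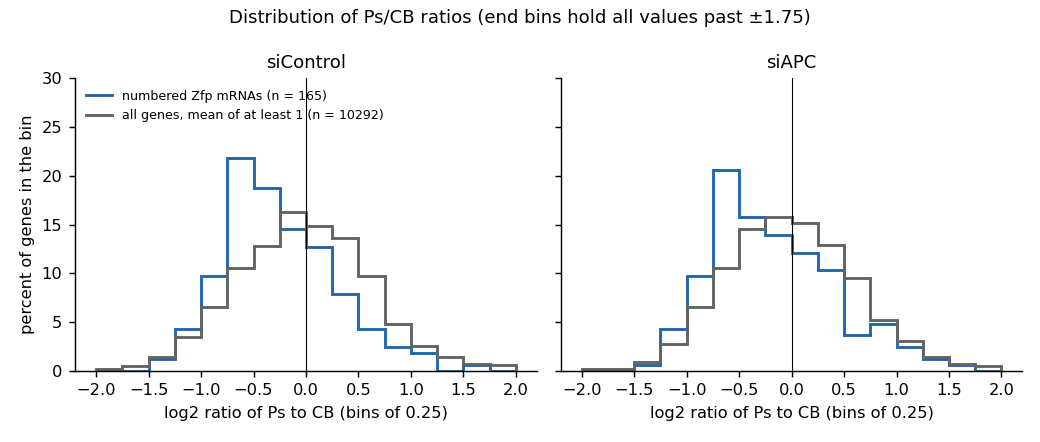
Percent of genes (y axis) per bin of 0.25 in the log2 ratio of Ps to CB (x axis) for the 165 members and for the 10292 genes above the same minimum mean. The fullest bin of the members, from -0.75 to -0.5, holds 21.8% of them in siControl, to the left of the centre of all genes.

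Zfp217, a repressor that works with the CtBP and CoREST complexes and is known from adipocyte and tumour biology, had the lowest Ps/CB ratio. Its log2 CPM values were 4.46, 4.38, 4.16 and 4.37 in siControl CB and 2.64, 2.98, 3.04 and 3.05 in siControl Ps. The groups were far apart, and Zfp217 was 2.67-fold lower in Ps (log2 ratio -1.42, SE 0.10, adjusted p = 8.64e-10). Zfp276 had 5.02, 4.92, 4.88 and 5.06 in CB and 3.64, 3.78, 3.71 and 3.73 in Ps, a 2.39-fold difference (log2 ratio -1.25, SE 0.09, adjusted p = 1.54e-09). Zfp579 had 5.53, 5.41, 5.32 and 5.45 in CB and 4.25, 4.43, 4.35 and 4.34 in Ps, a 2.11-fold difference (log2 ratio -1.08, SE 0.07, adjusted p = 1.89e-10). The spread within each of these groups was a small part of the distance between them. Zfp235, Zfp169, Zfp446, Zfp319 and Zfp646 complete the 8 lowest, with log2 ratios from -1.25 to -1.06 and no overlap between CB and Ps. With the loess correction on GC content and length described below, the ratios of Zfp217, Zfp276, Zfp579, Zfp319 and Zfp646 were -1.02, -0.66, -0.54, -0.51 and -0.54, and all 5 kept their call. Zfp235 was the least certain of the 8, with 42 to 70 reads in CB and 12 to 20 in Ps (SE 0.23, adjusted p = 0.000131).

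Zfp277, which binds the Polycomb protein Bmi1 in fibroblasts, had the highest ratio. It had 2.48, 3.10, 3.43 and 2.82 in siControl CB and 4.64, 4.67, 4.26 and 4.25 in siControl Ps. All Ps libraries lay above all CB libraries, a 2.83-fold difference (log2 ratio 1.50, SE 0.16, adjusted p = 1.15e-07). Zfp938, with a KRAB match and 10 fingers, had 1.37, 1.10, 1.91 and 1.45 in CB and 2.83, 2.55, 2.51 and 2.47 in Ps (log2 ratio 1.13, SE 0.19, adjusted p = 4.16e-05). Zfp560, also with a KRAB match, had 2.55, 2.66, 2.57 and 2.60 in CB and 3.62, 3.78, 3.25 and 3.36 in Ps (log2 ratio 0.90, SE 0.12, adjusted p = 3.1e-06). Zfp91, an atypical ubiquitin ligase of the noncanonical NF-κB pathway, was the most abundant of the 8 highest. It had 6.16, 6.22, 6.42 and 6.28 in CB and 6.99, 7.13, 7.08 and 7.0 in Ps, a 1.72-fold difference (log2 ratio 0.78, SE 0.07, adjusted p = 2.54e-08). With the loess correction Zfp277, Zfp938, Zfp560 and Zfp91 had 1.08, 0.36, 0.59 and 1.00, and the adjusted p of Zfp938 was 0.0488.

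For Zfp68, Zfp260 and Zfp397, siControl CB replicate 3 lay far above the other CB libraries. Zfp68 had 0.71, 0.20, 2.54 and 0.46 in CB and 2.31, 2.61, 1.42 and 1.77 in Ps, so that CB replicate 3 lay within the range of Ps (log2 ratio 1.05, SE 0.43, adjusted p = 0.0429). Zfp260, a regulator of cardiac genes, had 2.44, 2.65, 3.58 and 2.50 in CB and 3.65, 3.95, 3.46 and 3.64 in Ps (log2 ratio 0.88, SE 0.23, adjusted p = 0.00294). Zfp397 showed the same high value in that library, 2.24 against 0.72 to 1.08 in the others (log2 ratio 0.77, SE 0.30, adjusted p = 0.0329). Leaving out single libraries ended the call of Zfp68 in 7 of 16 cases and that of Zfp397 in 5, whereas Zfp260 was called in all 16. Without siControl CB replicate 3 the log2 ratios were 1.57, 1.15 and 1.12. Zfp931, with a log2 ratio of 1.22 (SE 0.19, adjusted p = 2.33e-05), shares 46% of its 50-base words with other transcripts, and its reads may be split or mixed with theirs. With the loess correction its ratio was 0.31 (adjusted p = 0.0766).

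**Figure D3:**
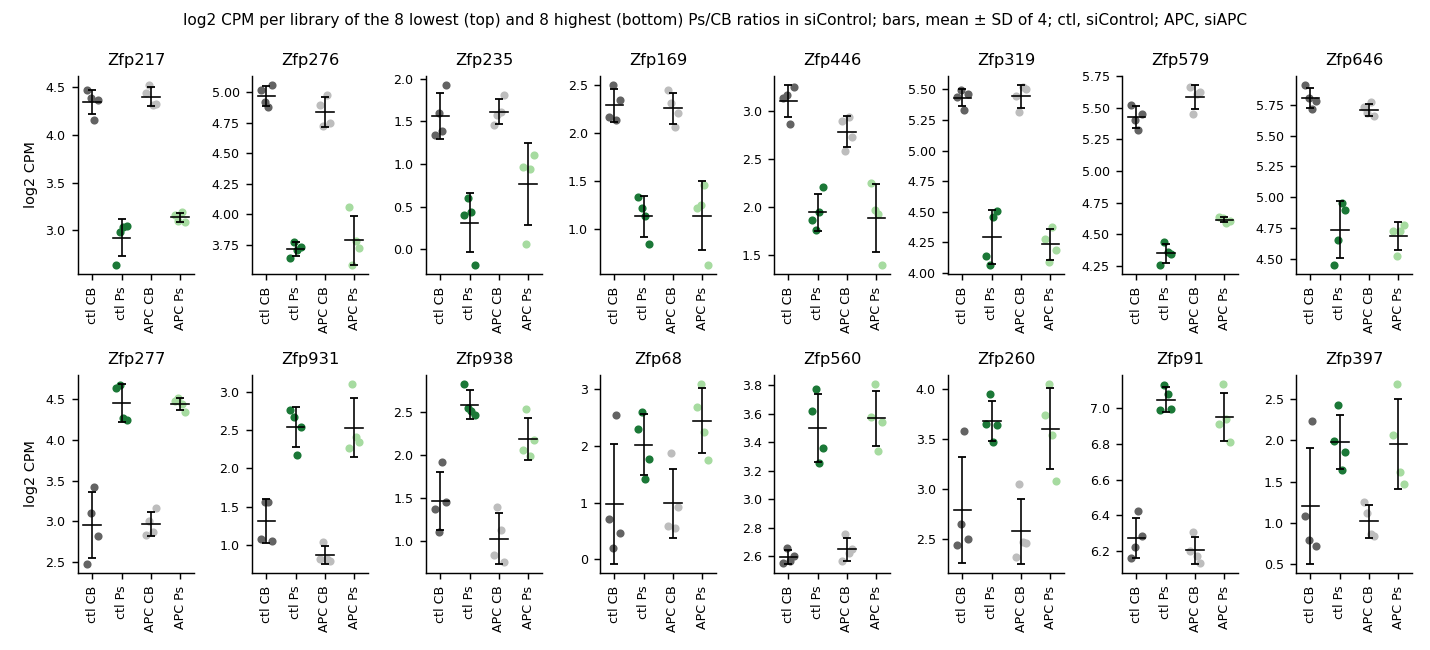
Log2 CPM (y axis, own scale in each panel) in each library of the 4 groups (x axis) for the 8 members with the lowest (top) and the 8 with the highest (bottom) Ps/CB ratio in siControl; bars are mean ± SD of 4. CB and Ps do not overlap in the top row, and a high siControl CB library is seen for Zfp68, Zfp260 and Zfp397 in the bottom row.

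The siAPC libraries give the same comparison from means of 8 other libraries, although the fit estimated the spread of each gene over all 16. In siAPC, 78 members were higher in CB and 34 higher in Ps, where 30.9% and 29.8% of all genes were. The members' median log2 ratio was -0.26, beside 0.015 over all genes. The 4 CB libraries lay above the 4 Ps libraries in 76 members and below them in 27, against 30.4% and 28.2% of all genes, and the fold rule called 8 members CB-enriched and 7 Ps-enriched, against 5.05% and 7.67%. Rescaled to the total of listed reads, 92 were higher in CB and 17 higher in Ps, where 39.3% and 21.5% of all genes were.

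The members' calls were then compared between the 2 siRNA groups. Of the members higher in CB, 71 were called in both, 87.7% of the siControl calls and 91.0% of the siAPC calls, and of those higher in Ps 21 were called in both, 91.3% and 61.8%. Over all genes the shares were 87.0% and 87.8% for CB and 86.2% and 84.3% for Ps, so the members were near the background apart from a lower share of the siAPC calls in Ps. No member was called in opposite directions, and 2 of all genes were. Zfp217 had 4.44, 4.52, 4.31 and 4.32 in siAPC CB and 3.16, 3.10, 3.19 and 3.09 in siAPC Ps (log2 ratio -1.26, SE 0.10, adjusted p = 5.04e-09). Zfp277 had 2.83, 3.01, 2.87 and 3.16 in siAPC CB and 4.48, 4.51, 4.44 and 4.34 in siAPC Ps (log2 ratio 1.47, SE 0.16, adjusted p = 1.81e-07). CB and Ps did not overlap for either, as in siControl.

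The 83 numbered Zfp genes under the mean did not show the shift towards CB. Of these weak genes 6 were higher in Ps and 8 higher in CB in siControl, 7.23% and 9.64%, with a median log2 ratio of 0.21. In siAPC 20 were higher in Ps and 6 higher in CB, 24.1% and 7.23%, with a median of 0.53. Over all genes 29.1% and 31.2% were called in siControl, and 29.8% and 30.9% in siAPC. Of these 13015 genes, however, 10292 had a mean of at least 1. Genes of like low level were not set apart, so the lean cannot be called particular to the weak Zfp genes. The transcripts of the 83 genes had a median GC content of 40.5%, against 50.1% in the members.

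Of the sequence properties computed, GC content of the transcript had the strongest Spearman coefficient with the ratio among the members. GC content of the coding sequence was close, at -0.54 in siControl and -0.63 in siAPC. By Pearson coefficient the coding sequence was the stronger, at -0.55 and -0.65 beside -0.53 and -0.63 for the transcript. Across the 165 members the Spearman coefficient between GC content of the transcript and log2 ratio of Ps to CB was -0.55 in siControl and -0.65 in siAPC, beside -0.37 and -0.48 across 10238 annotated genes with a mean of at least 1. These are descriptions across genes of the same libraries, and mean level also ran with GC content among the members, with a coefficient of 0.60. Coefficients with transcript length were -0.15 and -0.16, with coding length -0.25 and -0.25, beside -0.40 and -0.39 over all genes, and with the number of fingers -0.23 and -0.18. Within finger codons the wobble position differed more than the others: its median GC content was 70.3% in 80 members higher in CB in siControl and 49.3% in 22 higher in Ps, whereas the other codon positions had medians of 47.5% and 43.4%. Across 161 members with a finger the Spearman coefficient with the siControl ratio was -0.53 for the wobble position and -0.42 for the others, and with the siAPC ratio -0.62 and -0.47. Other parts of the transcript were not examined by codon position.

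The members were therefore also set beside all genes of like GC content. With cuts at 47.9% and 53.9%, which divide the 10238 genes into 3 equal classes, 60 members fell in the low class, 54 in the middle and 51 in the high. In the low class 14 members were higher in Ps and 6 higher in CB in siControl, 23.3% and 10% of them, with a median log2 ratio of 0.15. Over all genes of that class 45.0% were higher in Ps and 15% higher in CB, with a median of 0.27. In the middle class 5 were higher in Ps and 38 higher in CB, 9.26% and 70.4% of them, with a median of -0.57. Over all genes of that class 30.7% were higher in Ps and 38.6% higher in CB, with a median of -0.08. In the high class 4 were higher in Ps and 37 higher in CB, 7.84% and 72.5%, with a median of -0.54. Over all genes of that class 20.2% and 52.7% were, with a median of -0.28. The siAPC libraries gave medians of 0.32, -0.49 and -0.56 in the 3 classes, beside 0.36, -0.10 and -0.34 over all genes. A loess correction of each library on GC content and transcript length left 62 members higher in CB and 24 higher in Ps in siControl. Over all genes 26.0% and 28.7% were, and the members' median was -0.12 beside 0.025 over all genes. Of the uncorrected calls, 54 of the 81 and 16 of the 23 were shared. In siAPC the correction left 58 higher in CB and 27 higher in Ps, where 24.7% and 25.4% of all genes were. The members' median there was -0.077 beside 0.0094 over all genes.

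**Figure D4:**
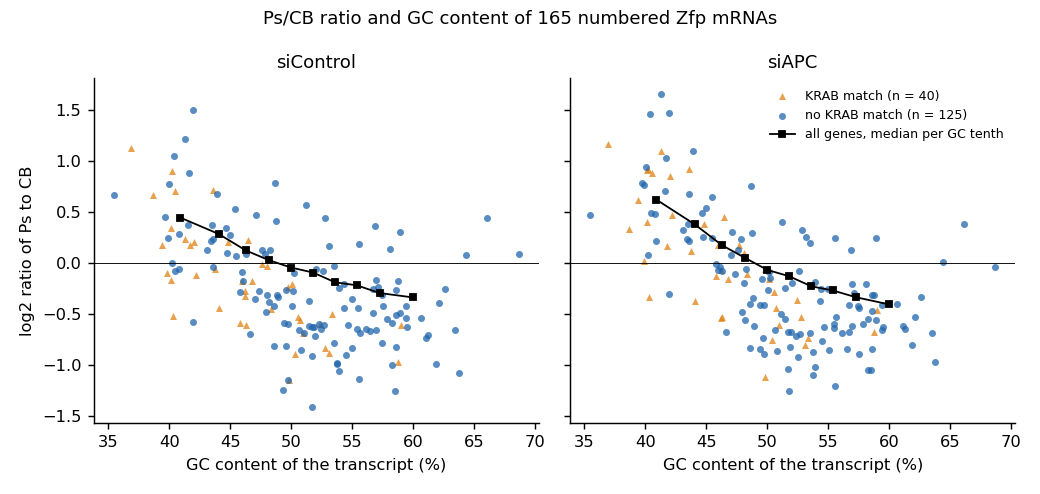
Log2 ratio of Ps to CB (y axis) against GC content of the annotated transcript in percent (x axis) for the 165 members, with a KRAB match (triangles) or without (circles), and the median of all genes in 10 classes of equal size by GC content (black line). In siControl the median of the members, which is not drawn, was below that of all genes in each of the 10 classes. Between 49.1% and 56.3% GC it was -0.59 to -0.65 per class against -0.05 to -0.22 for all genes. It was 0.28 against 0.44 in the class of lowest GC content and -0.54 against -0.34 in the highest. In siAPC it was 0.70 against 0.62 in the lowest class and -0.53 against -0.41 in the highest.

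Members were then described by the domains their coding sequence encodes. A KRAB match was found in 40 members and a SCAN match, an oligomerization domain, in 9. In siControl, 17 of the 40 KRAB members were higher in CB and 4 higher in Ps, with a median log2 ratio of -0.19, and 64 of the 125 others were higher in CB and 19 higher in Ps, with a median of -0.33. In siAPC the KRAB members had 11 higher in CB and 9 higher in Ps, with a median of -0.07, and the others 67 and 25, with a median of -0.32. The KRAB members higher in CB and in Ps were 42.5% and 10% in siControl and 27.5% and 22.5% in siAPC, beside 31.2% and 29.1%, and 30.9% and 29.8%, of all genes. The median GC content was 46.2% in members with a KRAB match and 51.7% in the others, and its part in this difference was not tested. By number of fingers the siControl medians were -0.19 in 20 members with 0 to 2, -0.07 in 33 with 3 to 6, -0.33 in 65 with 7 to 11 and -0.53 in 47 with 12 or more, and the siAPC medians were -0.22, 0.07, -0.34 and -0.42. In the last class 4 were higher in Ps and 26 higher in CB, among the latter Zfp142, with a log2 ratio of -0.83 (SE 0.07, adjusted p = 1.18e-08).

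Zfp genes lie in clusters, and 11 runs of at least 3 members within 500 kb of each other were found. Chromosome 7 held 48 of the members, 29.1%, against 7.46% of the 10238 annotated genes, and 30 of the 48 were higher in CB and 5 higher in Ps in siControl, 62.5% and 10.4% beside 31.2% and 29.1% of all genes. At chr7:127233061-127885996 (GRCm38), 9 of 10 members were higher in CB, from Zfp553 to Zfp646, with a median log2 ratio of -0.61 and a median GC content of 53.8%. At chr6:47835661-48086593, Zfp398, Zfp282, Zfp212, Zfp956, Zfp777 and Zfp746 were all higher in CB, with log2 ratios from -0.91 to -0.49 and a median GC content of 55.0%. The run with the highest median GC content, 61.2%, at chr7:4915217-5053723, had 3 members higher in Ps and 3 higher in CB. At chr18:23954692-24020810 Zfp397 and Zfp35, among 3 members, were higher in Ps and none higher in CB, with a median GC content of 40.8%. At chr9:20345136-20521417, 2 of 4 members, Zfp560 among them, were higher in Ps and 1 was higher in CB. Genes of a cluster can share sequence, and 22 members shared over 5% of their 50-base words with other transcripts. In the 109 members below that share and with no overlapping gene on either strand, 49 were higher in CB and 12 higher in Ps in siControl. Over all genes 31.2% and 29.1% were.

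Members known to act on ribosomes, RNA or the spindle are described next. Of 10 such members 4 were higher in Ps and 3 higher in CB in siControl, beside 29.1% and 31.2% of all genes, and 5 and 3 in siAPC. Zfp622, an assembly factor of the large ribosomal subunit, was higher in Ps with a log2 ratio of 0.57 (SE 0.07, adjusted p = 1.25e-06), and Zfp106, an RNA-binding protein, with 0.47 (SE 0.07, adjusted p = 8.07e-06). Zfp593, whose yeast counterpart helps export the large subunit, had a log2 ratio of 0.36 (SE 0.08, adjusted p = 0.000455), and Zfp706 of 0.22 (SE 0.07, adjusted p = 0.0135). In the opposite direction, Zfp598, the ubiquitin ligase of collided ribosomes, had -0.43 (SE 0.07, adjusted p = 5.58e-05), Zfp830 had -0.42 and Zfp346, which binds double-stranded RNA, had -0.36. Scaled to total listed reads, Zfp106 had 0.17 and Zfp593 0.063, neither of them called, and Zfp706 had -0.079, whereas Zfp622 kept its call with 0.27. The call of Zfp706 held in 23 of 27 alternatives. The loess correction turned the sign of Zfp598, to 0.13, and made the abundant Zfp207, at 0.09 without it, -0.19.

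Regulators known from development held the lowest ratio of all, that of Zfp217. Of 14 such members 6 were higher in CB and none higher in Ps in siControl, with a median log2 ratio of -0.36, and 7 were higher in CB and 3 higher in Ps in siAPC, with a median of -0.29. These were 42.9% and 0% in siControl and 50% and 21.4% in siAPC, beside the same shares of all genes as for the KRAB members. Beside Zfp217, Zfp516, an inducer of the brown fat program, was lower in Ps with a log2 ratio of -0.99 (SE 0.09, adjusted p = 1.31e-08), Zfp335 with -0.55, Zfp703 with -0.54, Zfp384 with -0.44 and Zfp219 with -0.40. Under the loess correction Zfp335, Zfp703 and Zfp219 had 0.12, 0.03 and 0.19, so their direction depended on it. Zfp384 had -0.10 and was no longer called, and Zfp217 and Zfp516 kept direction and call. Zfp148, Zfp131 and Zfp110 were the 3 called higher in Ps in siAPC, with log2 ratios of 0.77, 0.78 and 0.45. Of the KRAB repressors with known targets, Zfp568, which silences a placental Igf2 transcript, had a ratio of -0.56 (SE 0.23, adjusted p = 0.0409) in siControl, and Zfp57, which guards imprints, had -0.28 (adjusted p = 0.142). The call of Zfp568 was lost without siControl CB replicate 3 or 4 or siControl Ps replicate 1 or 2, with a ratio of -0.29 without siControl Ps replicate 1. Of all 27 alternatives 18 kept this call. The ratio of Zfp57 ran from -0.44, without siControl Ps replicate 2, to -0.14, without siControl Ps replicate 3.

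The partners of KRAB zinc finger proteins in repression were called at close to the shares of all genes. Of the 22 listed, 7 were higher in Ps and 7 higher in CB in siControl, 31.8% each, and 7 and 8 in siAPC. Trim28, the scaffold bound by KRAB, had a log2 ratio of -0.21 (adjusted p = 0.0221), and Setdb1 of -0.41 (adjusted p = 0.000125), whereas Cbx5, a heterochromatin protein, had 0.21 (adjusted p = 0.00398) and Mphosph8, of the HUSH complex, 0.82 (adjusted p = 0.0035). Most, but not all, other families with C2H2 fingers had more members higher in CB than in Ps, beside 31.2% and 29.1% of all genes. Of 33 Zbtb genes 22 were higher in CB and 3 higher in Ps in siControl, with a median of -0.56, of 8 Zscan genes 6 and 0, of 7 Zkscan genes 4 and 0, and of 11 Klf genes 9 and 0. The Sp family differed, with 1 of 4 genes higher in CB, 1 higher in Ps and a median of 0.12. Of 13 Zc3h genes, with CCCH fingers, 6 were higher in CB and 3 higher in Ps.

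Whether the distribution of zinc finger mRNAs changed with siAPC was tested as the difference of the 2 ratios. No member was called in either direction by limma, while 0% of all genes were called higher and 0.0231% lower. At an unadjusted p under 0.05 in limma, none of the 165 members was higher and 2 were lower, beside 269 and 223 of all 13015 genes. Limma with voom weights also called no member. The members' median difference, siAPC minus siControl, was 0.07 on the log2 scale, beside 0.0048 over all genes, and the median SE of a member's difference was 0.17. The largest differences belonged to weak members: Zfp157 had 0.86 (SE 0.50), Zfp961 0.64 and Zfp952 0.59, each at an adjusted p of 0.981. Zfp157 had 0.97, 1.40, 0.87 and -0.38 in siAPC CB and 1.2, 0.75, 2.21 and 1.09 in siControl CB, with a low and a high library that widen its error. The most negative were Zfp651 with -0.34, Zfp944 with -0.33 and Zfp202 with -0.28, also at 0.981. With a library left out Zfp157 ran from 0.50 to 1.09, and Zfp944 from -0.53 to -0.17.

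The level within a fraction was then compared between siAPC and siControl. In CB, 2 members were higher and 2 lower in siAPC, where 7.52% and 5.87% of all genes were called, and the members' median was -0.09 beside -0.04 over all genes. In Ps, 5 were higher and 5 lower, where 10.7% and 11.2% of all genes were called, with a median of -0.04 beside -0.02. The share of members called was below that of all genes in both fractions. With the replicate number as a block, which pairs the Ps libraries, 6 members were higher and 8 lower in Ps, where 11.9% and 13.5% of all genes were.

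Zfp827 and Zfp362 were called higher with siAPC in both fractions. Zfp827, a protein that recruits the NuRD complex to telomeric chromatin, had 4.32, 4.30, 4.20 and 4.19 in siControl CB and 4.59, 4.55, 4.71 and 4.56 in siAPC CB. In Ps it had 3.85, 3.67, 3.98 and 3.83 in siControl and 4.21, 4.31, 4.36 and 4.45 in siAPC. The groups did not overlap in either fraction, and Zfp827 rose 1.27-fold in CB (log2 0.35, SE 0.08, adjusted p = 0.00618) and 1.41-fold in Ps (log2 0.50, SE 0.08, adjusted p = 0.000167). Zfp362 rose from 5.99, 6.06, 5.77 and 5.92 to 6.22, 6.20, 6.32 and 6.30 in CB, 1.25-fold (log2 0.32, SE 0.08, adjusted p = 0.0129). In Ps it had 5.55, 5.39, 5.61 and 5.49 in siControl and 5.78, 5.58, 5.92 and 5.97 in siAPC, overlapping groups (log2 0.30, SE 0.08, adjusted p = 0.0129), and without siAPC Ps replicate 4 the adjusted p was 0.0514.

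The other members called passed in a single fraction, and the test of the difference between fractions passed for none of them. In CB, Zfp330, a nucleolar protein, fell from 4.62, 4.43, 4.63 and 4.47 to 4.31, 4.25, 4.14 and 4.13 (log2 -0.33, SE 0.08, adjusted p = 0.00635), and Zfp408, linked to retinal vessels, fell by 0.30 (adjusted p = 0.016). Zfp330 shares 19.1% of its 50-base words with other transcripts, and Zfp408 was no longer called without siControl CB replicate 1 or siAPC CB replicate 4. In Ps, Zfp707 rose from 2.97, 3.12, 3.19 and 3.35 to 3.62, 3.63, 3.53 and 3.77 (log2 0.48, SE 0.11, adjusted p = 0.00281), and Zfp579 rose by 0.27 (adjusted p = 0.00721). Zfp593 fell in Ps from 5.24, 5.11, 5.17 and 5.12 to 4.88, 4.93, 4.80 and 4.85 (log2 -0.29, SE 0.08, adjusted p = 0.00937). Zfp703 rose by 0.20 in Ps, and Zfp692, Zfp687, Zfp740 and Zfp106 fell by 0.32, 0.31, 0.23 and 0.20, with adjusted p from 0.0296 to 0.0404. Each of these 5 calls was lost without siControl Ps replicate 4, and each also without other single libraries. The count of members lower in Ps was 1 without siControl Ps replicate 4 and 3 without siAPC Ps replicate 1 or 3. It was 9 without siControl CB replicate 3 and 8 without siControl Ps replicate 2.

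Scaling and GC content also moved these counts. Rescaled to the total of listed reads, which moved the median of all genes in Ps from -0.02 to 0.14, 17 members were higher and 0 lower in Ps, where 22.6% and 4.23% of all genes were. With the loess correction, 3 members were higher and 31 lower in Ps, and 3 higher and 25 lower in CB, where 21.8% and 14.9% of all genes were lower. The siAPC difference in CB ran with GC content across the members, with a Spearman coefficient of 0.53, beside 0.26 across the 10238 genes. For the difference in Ps the coefficients were 0.10 and -0.04. The change of the Ps/CB ratio with siAPC had a coefficient of -0.47 across the members and -0.36 across the 10238 genes.

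**Figure D5:**
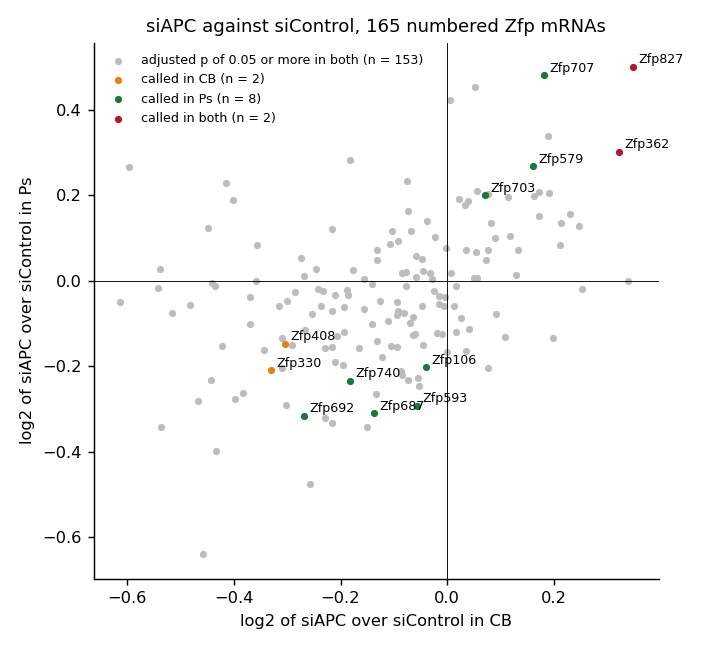
Log2 difference of siAPC over siControl in Ps (y axis) against that in CB (x axis) for the 165 members, coloured by the fraction in which limma called them at an adjusted p under 0.05. Zfp827 and Zfp362, called in both, lie at the upper right, and 153 members were called in neither.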

How the data were processed

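RNA-Seq values of the 16 libraries, 4 per fraction and siRNA, were used. The deposited values are log2 CPM, which the authors made with STAR 2.4.2a on mm10 and limma-voom (limma 3.26.1) after an expression cutoff, with bcl2fastq 1.8.4 for the reads, per the submitters' processing notes. The labels name a stranded total RNA kit and the methods a stranded mRNA kit, and the strand setting of the counting is not given in the sources used here, so reads of antisense genes may not be told apart. The pseudocount of 0.5 reads used by voom gave whole reads for 100% of 208240 values within 0.05 of a read.

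Each gene was fitted in limma 3.58.1 (R 4.3.3) with a mean-variance trend over the 4 groups, p-values being adjusted by Benjamini-Hochberg over all 13015 genes. Tables were built with Python 3.11.15, pandas 2.3.3 and numpy 2.4.6, and the fit was tested on simulated data. GENCODE M21 on GRCm38 gave positions and sequences for 12875 genes, 98.9%.

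The members and lists were chosen with earlier results of these data known. Named were the 8 lowest and 8 highest Ps/CB ratios in siControl, up to 5 siAPC differences in each direction and fraction, the 3 most positive and negative changes of the ratio, the 3 highest levels per length, and the members of 3 role lists. Zfp292 and Zfp142 were named after their values were seen. Replicate numbers were checked by the correlation of same-numbered deviations from group means. These averaged 0.502 (0.416 to 0.617) between siAPC CB and Ps and 0.345 (0.162 to 0.551) between siControl Ps and siAPC Ps, which were taken as paired. Libraries of different number averaged -0.165 and -0.112 there, but reached 0.572 and 0.347. Same-numbered values averaged 0.132, with a lowest of -0.121, between siControl CB and Ps, which were not taken as paired. Between siControl CB and siAPC CB, also not taken as paired, they averaged -0.034, with a lowest of -0.336. The main fit used no block, so its p-values leave the pairing out. The replicate block, an alternative, was applied to every comparison, also to those not taken as paired. The alternatives changed the filter, pseudocount, scaling, weights, groups in the fit, block, GC and length correction, and the libraries left out.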

Additional observations from a re-analysis of the deposited data

Results flagged for a closer look

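In 10 of 232 groups of 4 libraries, taken over the named members and 3 summaries of all members, 1 library stood far from the other 3 by Dixon's criterion, and chance flags about 1 in 20 groups. Zfp217 had 2.64 in siControl Ps replicate 1, below 2.98 to 3.05 in the others. Zfp235 had 0.059 in siAPC Ps replicate 2, against 0.94 to 1.11. Zfp384 had 5.95 in siControl Ps replicate 2, against 6.16 to 6.19, and Zfp598 had 6.95 in siControl CB replicate 3, against 7.10 to 7.11. Zfp462 had 2.60 in siAPC CB replicate 4, above 1.99 to 2.09. Zfp593 had 4.54 in siControl CB replicate 3, against 4.85 to 4.91, and Zfp703 had 8.26 in siControl Ps replicate 1, above 8.13 to 8.14. Zfp707 had 4.51 in siAPC CB replicate 3, above 4.24 to 4.26. Zfp931 had 1.05 in siAPC CB replicate 2, above 0.79 to 0.83. Zfp961 had 0.91 in siControl Ps replicate 3, below 1.47 to 1.58.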

How the results depend on the processing

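For Ps against CB in siControl, 15 of the 95 members with a mean of at least 3 were higher and 60 lower. Of the 8136 genes that passed this filter 34.1% and 38.6% were. After scaling to total listed reads 7 of all 165 were higher, where 15.4% of all genes were. With a library left out 19 to 31 were higher, the highest without siControl CB replicate 3, while 75 to 83 were lower. The median was -0.44 with a mean of at least 3, -0.12 with the loess correction with or without the replicate block, -0.61 after scaling to total reads, and -0.35 to -0.29 with a library left out. In siAPC, 17 of these 95 were higher and 61 lower with that filter, where 33.2% and 40.1% of the genes passing it were. After scaling to total reads 17 of 165 were higher, where 21.5% of all genes were. With a library left out 26 to 36 were higher and 74 to 81 lower. The median there was -0.42 with a mean of at least 3, -0.077 with loess with or without the replicate block, and -0.42 after scaling. The change of the ratio with siAPC called no member under any alternative, and its median was 0.21 after scaling to total reads, 0.012 with a mean of at least 3, 0.024 with quantile normalization, 0.033 with loess and 0.04 to 0.08 with a library left out.

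For siAPC against siControl in CB, 5 members were higher with only the groups compared, 4 with quantile normalization and 5 with the replicate block. Over all genes 8.24%, 8.43% and 8.43% were higher in these settings. Leaving out a library gave 2 to 3 members higher. Lower were 25 of 165 with loess and 22 with loess and the replicate block, beside 14.9% and 17.1% of all genes. The count was 4 with only the groups compared, 4 with quantile normalization and 7 with the replicate block. Over all genes 6.52%, 6.53% and 7.36% were lower in these settings. Voom weights gave 5 lower, beside 6.92% of all genes. Dropping the 4 GC-trend libraries gave 8 lower and 3 higher, beside 8.51% and 7.45% of all genes. Single libraries left out in turn gave 2 to 4 lower. The highest came without siAPC Ps replicate 2 or siControl CB replicate 3. In Ps, 3 were higher with loess, 17 after scaling and 10 without the GC-trend libraries, where 10.7%, 22.6% and 11.7% of all genes were. With a library left out 4 to 7 were higher. Lower were 8 of 95 with a mean of at least 3, where 16.6% of the 8136 genes that passed it were. With loess 31 of 165 were lower, and 33 with the replicate block added, where 21.8% and 24.0% of all genes were. Only the groups compared gave 2 lower, quantile normalization 8 and the replicate block 8, where 8.44%, 10.8% and 13.5% of all genes were. After scaling 0 were lower, and without the GC-trend libraries 10, where 4.23% and 14.0% of all genes were. The count was 1 to 9 with a library left out. The median after scaling was 0.13. With the replicate block the Ps against CB counts were 22 higher and 83 lower in siControl and 34 higher and 78 lower in siAPC. Over all genes 30.5% and 32.5% were called with this block in siControl, and 31.4% and 32.1% in siAPC.

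Named ratios of Ps to CB in siControl reversed as follows. After scaling to total reads Zfp110 was -0.073, Zfp148 -0.057, Zfp207 -0.21, Zfp281 -0.17, Zfp318 -0.027 and Zfp706 -0.079. With loess, with or without the replicate block, Zfp131 was -0.028, Zfp207 -0.19, Zfp219 0.19, Zfp281 -0.014, Zfp335 0.12, Zfp423 0.087, Zfp521 0.048, Zfp598 0.13 and Zfp703 0.026. Zfp462 was 0.066 without the GC-trend libraries. With a library left out Zfp281 ran from -0.012, without siControl CB replicate 1, to 0.34, and Zfp369 from -0.15 to 0.066. Of 1154 values of 43 called results, 1057 kept call and direction and 88 lost the call, Zfp68 and Zfp397 among them. Of the 16 extreme ratios, loess moved those of Zfp276, Zfp579, Zfp319, Zfp646, Zfp938 and Zfp931 most, as given in the report. The cause was not tested. Depth limits weak members such as Zfp235, with 12 to 20 reads in siControl Ps.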

Other observations

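Zfp36, left out by name and encoding an mRNA decay factor, was also lower in Ps, by 0.96 in siControl (SE 0.08, adjusted p = 8.48e-09) and by 0.93 in siAPC (SE 0.08, adjusted p = 1.74e-08) on the log2 scale. Among the 22 partners of KRAB proteins, 1 was higher and 2 lower with siAPC in CB, 4.55% and 9.09%, beside 7.52% and 5.87% of all genes. In Ps 1 was higher and 4 lower, 4.55% and 18.2%, beside 10.7% and 11.2% of all genes. Uhrf1 was higher, by 0.64 in CB (adjusted p = 0.0173) and 0.66 in Ps (adjusted p = 0.00897). Setdb1 was lower with siAPC, by 0.32 in CB (adjusted p = 0.00855) and 0.29 in Ps (adjusted p = 0.0111). The other partners called were Morc2a, lower in CB, and Chd3, Cbx3 and Ehmt1, lower in Ps.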
